A study of Mus musculus with 16 samples.

Results

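Retinal pigment epithelium (RPE) of Sucnr1 knockout mice was compared with that of wild-type mice after exposure of both to hydroquinone. The comparison used the 8 of 16 libraries whose titles give the treatment as +: 4 titled KO and 4 titled WT, each from the eye of a different mouse. All mice were males of 40 weeks on the C57BL/6 background, and RPE clumps were lifted from the choroid with forceps once the anterior segment and the neural retina were removed. The other 8 libraries are untreated eyes of both genotypes, 4 of wild type from 2 mice and 4 of knockout from 3 mice, and serve as the background here. The labels give no dose, route or duration of the hydroquinone and do not say how the knockout allele was made. Nor do they state whether the mice of the genotypes were littermates.

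SUCNR1 is a G protein-coupled receptor for succinate, an intermediate of the citric acid cycle that cells release when mitochondria are under strain. The RPE is a pigmented monolayer that recycles visual pigment, takes up shed photoreceptor tips and forms the outer blood-retina barrier on Bruch membrane, a sheet of extracellular matrix. Hydroquinone is an oxidant found in cigarette smoke, and cells meet quinones with a set of detoxifying genes driven by the transcription factor NRF2.

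Total counts of the 8 libraries ranged from 23356175 to 35332444, with 21277 to 23533 genes holding a count. All 12 RPE markers were tested, and their mean log2(CPM + 1), where CPM is the read count scaled to library size with edgeR's TMM factors, was 9.20 to 9.78 in wild type and 9.22 to 9.85 in knockout. Of those markers, Rpe65 was at 2153 to 4225 CPM in wild type and 2434 to 3763 CPM in knockout, while Best1, a chloride channel gene of the RPE, was at 3.02 CPM or less in all 8. Some libraries stood apart by markers of other tissues. Knockout replicate 1 had a mean of 9.59 over 15 rod photoreceptor markers, against 2.76 to 3.56 in the other knockout libraries and 4.31 to 7.41 in wild type. Wild-type replicates 1 and 2 had means of 9.76 and 9.78 over 13 markers of the corneal and surface epithelium, against 7.55 to 9.37 in the other 6 libraries. Replicate numbers are accession order only.

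The level of the targeted gene does not check the genotype labels. Sucnr1 (ENSMUSG00000027762, GRCm38 chromosome 3, 60081869 to 60087566, plus strand) had 1 count in the 4 wild-type hydroquinone libraries, in replicate 4, and 1 count in the 4 knockout ones, in replicate 3. Both groups lie under a floor of 3 counts per library, so no fold is given. The difference in mean log2(CPM + 1) was -0.0035 (exact permutation test over 4 against 4 mice, 2-sided, p = 1, where the smallest p possible is 0.0286). Untreated wild type held 28 counts, 10 of them in replicate 1 and 17 in replicate 2, and untreated knockout held 3. Untreated wild-type replicates 1 and 2 are fellow eyes of the same mouse, and the eyes of the other mouse held 0 and 1. The libraries are therefore named by their labels alone.

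Genes near the targeted allele were examined because such an allele can carry neighbouring DNA of another strain. Of 32 genes tested within 5 Mb of Sucnr1, 1 had an unadjusted p below 0.05 by edgeR's quasi-likelihood test, against 4.18% of all 15380 genes tested, and none had separate libraries. It was Mme, the gene of the peptidase neprilysin, at 13.3, 14.6, 31.6 and 23.2 CPM in wild type and 23.3, 34.4, 44.6 and 37.4 CPM in knockout (log2 fold change 0.76, SE 0.30). The groups overlapped for Mme. The nearest tested neighbours had log2 fold changes of -0.78 (Aadac, SE 0.78), 0.23 (Igsf10, SE 0.29), -0.03 (Mbnl1, SE 0.13) and -0.14 (P2ry1, SE 0.29), and the median over the 32 genes was 0.04.

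Across the transcriptome, few or no genes separated the genotypes once the number of tests was counted. Of 15380 genes, 0 (0.0%) passed an adjusted p of 0.05 in edgeR (smallest adjusted p 1.00), 0 passed in limma-voom, and 3 of 15376 (0.0195%) passed in DESeq2. At an unadjusted edgeR p below 0.05 there were 643 genes, 4.18% of those tested, where evenly spread p-values would give 5%. Of these, 407 were higher in knockout (2.65%) and 236 were lower (1.53%). With upper-quartile scaling the numbers were 335 higher and 302 lower, so the lean towards higher genes was smaller under that scaling. The median log2 fold change over all genes was 0.01, the median of its absolute size was 0.14 and the median SE was 0.20. The libraries of the groups did not overlap for 265 genes higher in knockout (1.72%) and 93 lower (0.605%).

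**Figure D1:**
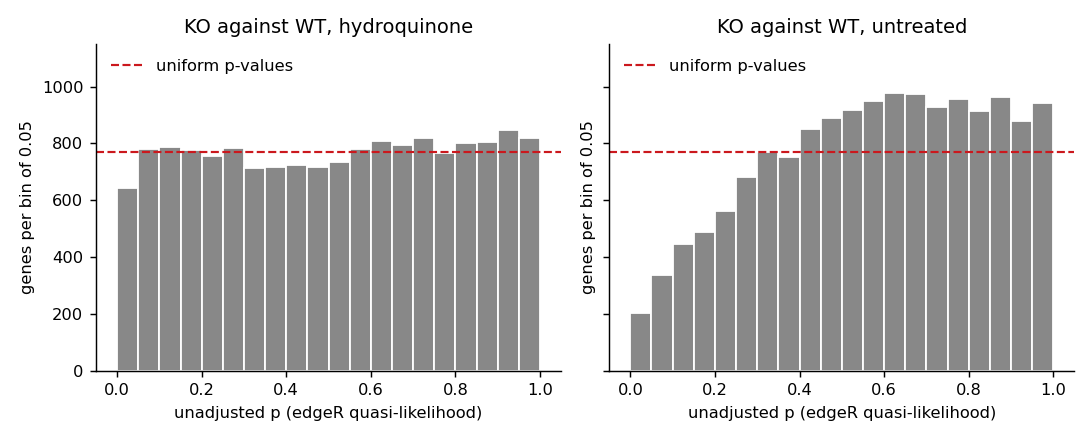
Number of genes in each bin of 0.05 of the unadjusted edgeR p for knockout against wild type, under hydroquinone (left) and untreated (right), over 15380 genes each. The dashed line is the level of evenly spread p-values; the lowest bin holds 643 genes on the left and 203 on the right, both below it.

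The count of 643 moved with single libraries. Without wild-type replicate 3 it was 1779, with 4.8% of all genes higher and 6.77% lower. Without knockout replicate 1, the library with the high rod markers, it was 1154 (4.26% higher, 3.24% lower), and without knockout replicate 2 it was 1087 (2.62% higher, 4.45% lower). Leaving out wild-type replicate 1 gave 380 (1.78% higher, 0.689% lower) and wild-type replicate 2 gave 372 (1.94% higher, 0.481% lower). The counts were 320 without knockout replicate 3 (1.4% higher, 0.683% lower), 337 without knockout replicate 4 (1.64% higher, 0.553% lower) and 737 without wild-type replicate 4 (2.26% higher, 2.53% lower). None of these 8 fits gave a gene past the adjusted threshold in edgeR. Below, higher and lower describe a sign, and a count of genes higher or lower is always at an unadjusted edgeR p below 0.05, since no gene of any list passed adjustment (adjusted p = 1.00 for each).

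The 3 genes that passed in DESeq2 were Nr2f1, Mapk4 and Bche, each at a DESeq2 adjusted p of 0.040 and each higher in knockout, and Matn2 followed at 0.069. In edgeR none of the 4 passed (adjusted p = 1.00). Nr2f1 (ENSMUSG00000069171, chromosome 13, 78188973 to 78199757, minus strand) encodes COUP-TFI, an orphan nuclear receptor that acts as a transcription factor in eye and brain development. Its level was 16.7, 19.8, 24.6 and 21.1 CPM in wild type and 32.7, 31.2, 33.2 and 34.7 CPM in knockout. The lowest knockout library lay above the highest wild-type one, and the log2 fold change was 0.68 (SE 0.13). Its close relative Nr2f2, which encodes COUP-TFII, had a log2 fold change of -0.05 (SE 0.12), at 76.7 to 86.7 CPM in wild type and 67.0 to 87.9 CPM in knockout.

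Mapk4 (ENSMUSG00000024558), which encodes the atypical MAP kinase ERK4, was at 13.1, 11.1, 12.8 and 13.9 CPM in wild type and 18.7, 23.7, 25.1 and 22.1 CPM in knockout (log2 fold change 0.81, SE 0.17). The wild-type libraries lay close together, and all 4 knockout libraries were above them. Among 22 tested genes of MAP kinase signalling, Mapk4 was the 1 with an unadjusted p below 0.05, a share close to the 4.18% of all genes, and the median log2 fold change of that list was -0.01. Bche (ENSMUSG00000027792, chromosome 3, 73635808 to 73708415, minus strand) encodes butyrylcholinesterase, a secreted esterase. Bche was at 4.01, 4.47, 8.91 and 4.34 CPM in wild type and 10.4, 12.9, 12.8 and 12.9 CPM in knockout (log2 fold change 1.18, SE 0.25). One library in each group stood away from its 3 others, wild-type replicate 3 towards the knockout level and knockout replicate 1 towards the wild-type level. Without wild-type replicate 3 the log2 fold change of Bche was 1.52.

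Matn2 (ENSMUSG00000022324, chromosome 15, 34306677 to 34436273, plus strand) encodes matrilin-2, an adaptor protein of the extracellular matrix. It was at 30.4, 31.1, 34.5 and 28.9 CPM in wild type and 39.8, 50.01, 46.2 and 47.3 CPM in knockout (log2 fold change 0.55, SE 0.11). Across the fits that left out 1 library, the log2 fold change stayed between 0.51 and 0.62 for Matn2, between 0.59 and 0.78 for Nr2f1 and between 0.75 and 0.89 for Mapk4. Reads of overlapping genes are a limit, since the strand setting of the counting is not given in the sources used here: exons of the antisense gene A830082K12Rik cover 2.42% of the exon bases of Nr2f1, and those of Gm9925 cover 4.78% of Mapk4's.

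**Figure D2:**
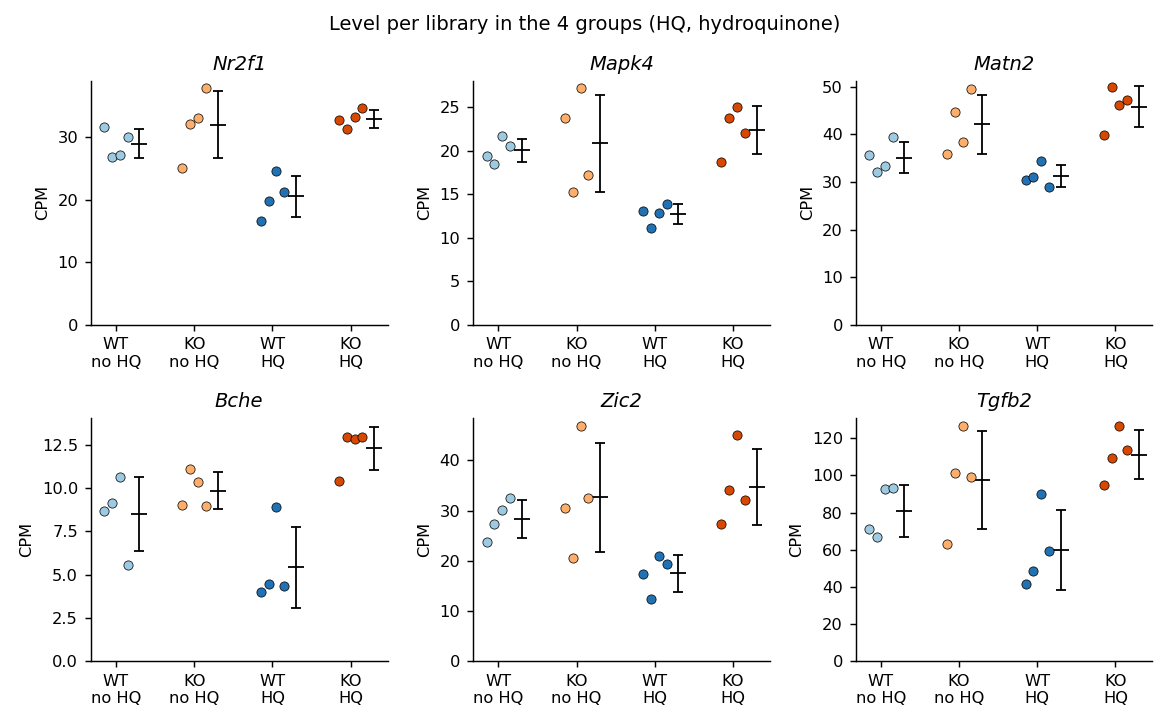
CPM in each library of the 4 groups for 6 genes higher in knockout under hydroquinone (HQ); points are libraries, and the bar beside them is the mean and SD over 4 libraries. In each panel the 4 KO HQ points sit above the 4 WT HQ points, while the untreated KO and WT points overlap.

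The same genes were then read in the untreated eyes, whose libraries and mice are separate from those above. The 4 wild-type libraries there come from 2 mice and the 4 knockout ones from 3 mice. The fit counts each library as a unit, so fellow eyes count as replicates. Nr2f1 was at 28.9 ± 2.29 CPM in untreated wild type and 32.0 ± 5.29 CPM in untreated knockout (SD, n = 4 libraries), a log2 fold change of 0.15 (SE 0.13). For Mapk4 these values were 20.0 ± 1.37 and 20.8 ± 5.59 CPM (log2 fold change 0.06), and for Bche 8.50 ± 2.12 and 9.85 ± 1.05 CPM (0.21). Matn2 alone of the 4 had an unadjusted p below 0.05 there, with 35.1 ± 3.24 CPM in wild type and 42.2 ± 6.19 CPM in knockout (0.26, SE 0.11). The wild-type hydroquinone means were 20.6 ± 3.30 CPM for Nr2f1, 12.7 ± 1.17 CPM for Mapk4, 5.43 ± 2.32 CPM for Bche and 31.2 ± 2.37 CPM for Matn2 (SD, n = 4). Choosing genes for a higher level in knockout under hydroquinone favours a low wild-type mean there, so its place among the 4 groups is not read as a result. The same choice favours a positive difference between the genotype contrasts, and these differences are given as a description. The difference between the genotype contrasts with and without hydroquinone, the interaction, was 0.53 for Nr2f1 (SE 0.19), 0.76 for Mapk4 (SE 0.24), 0.97 for Bche (SE 0.35) and 0.29 for Matn2 (SE 0.16). None of these passed adjustment over all genes: 0 of 15380 interactions passed in edgeR and 0 in DESeq2, and 296 (1.92%) had an unadjusted p below 0.05.

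By the rule for naming, the 12 higher and the 12 lower protein-coding genes with the smallest p among those with separate libraries were listed, and their separation under hydroquinone is therefore a description. Besides the 4 above, the higher genes were Zic2, Tbc1d9b, Tmem255a, Pdlim4, Tgfb2, Lurap1, Mboat2 and Slc13a4, and the 12 ranged from 0.49 to 1.18 in log2 fold change. Zic2, a zinc finger transcription factor of the developing eye margin, was at 17.4, 12.5, 21.03 and 19.4 CPM in wild type and 27.3, 34.1, 45.1 and 32.1 CPM in knockout (log2 fold change 0.98). Tgfb2, a secreted ligand of the TGF-beta receptors, was at 41.7, 48.4, 90.2 and 59.3 CPM in wild type and 94.7, 109, 127 and 114 CPM in knockout (0.89). For Tgfb2 wild-type replicate 3 came within a few CPM of the lowest knockout library. Slc13a4, which encodes a sodium-coupled sulfate transporter, was at 27.0, 16.7, 34.5 and 23.2 CPM in wild type and 55.0, 43.5, 63.3 and 42.9 CPM in knockout (1.01). Tmem255a was at 3.47, 4.96, 9.30 and 5.36 CPM in wild type and 13.2, 10.3, 13.8 and 10.9 CPM in knockout (1.06). In untreated eyes its log2 fold change was -0.50, and its interaction was 1.56, of which the contrast used to choose it is 1 term. Tmem255a shares 10.6% of its exon bases with Zbtb33, and Lurap1 shares 10.9% with Pomgnt1, on opposite strands.

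The 12 lower genes ranged from -2.25 to -0.23, and those with the largest folds were at low levels. Frem3, of a family of extracellular matrix proteins, was at 6.23, 5.59, 1.87 and 2.04 CPM in wild type and 0.691, 1.44, 0.745 and 0.427 CPM in knockout (log2 fold change -2.25, SE 0.65). Kera, which encodes keratocan of the corneal stroma, was at 5.01, 4.70, 14.9 and 4.68 CPM in wild type and 1.58, 2.75, 3.14 and 0.641 CPM in knockout (-1.85, SE 0.57). The highest levels were in wild-type replicates 1 and 2 for Frem3 and in wild-type replicate 3 for Kera. Ttk, a kinase of the mitotic spindle checkpoint, was at 1.11 to 2.87 CPM in wild type and 0.641 to 1.02 CPM in knockout (-1.10). Duox2, an oxidase that makes hydrogen peroxide, was at 2.18, 4.06, 1.71 and 2.55 CPM in wild type and 1.15, 1.65, 1.33 and 1.28 CPM in knockout (-0.96, SE 0.30), and it shares 6.05% of its 50-base transcript windows with Duox1. Among the more highly expressed genes the differences were small. Srsf6, a splicing factor, was at 120.5 to 143 CPM in wild type and 102 to 117 CPM in knockout (-0.28). Arglu1 was at 90.7 to 111 CPM and 73.0 to 83.7 CPM (-0.32). Usp46, a deubiquitinase, was at 50.21 to 59.3 CPM and 43.4 to 50.18 CPM (-0.23), so its groups were only just separate. Sema3a, a secreted guidance cue, was at 4.595 to 5.62 CPM in wild type and 2.80 to 4.51 CPM in knockout (-0.52).

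In untreated eyes 11 of the 12 higher genes had the same sign, 1 of them with an unadjusted p below 0.05 (Matn2), and 6 of the 12 lower genes did, 1 with such a p (Duox2, log2 fold change -0.75). The untreated libraries of the genotypes overlapped for all 12 higher genes and for 11 of the 12 lower ones. Of all 643 genes with an unadjusted p below 0.05 under hydroquinone, 375 (58.3%) had the same sign untreated, against 57.2% of all genes tested, so the share is near the background. In that untreated comparison 0 of 15380 genes passed in edgeR and 0 in DESeq2, and 203 (1.32%) had an unadjusted p below 0.05. There were 8 genes with such a p and the same sign in both.

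**Figure D3:**
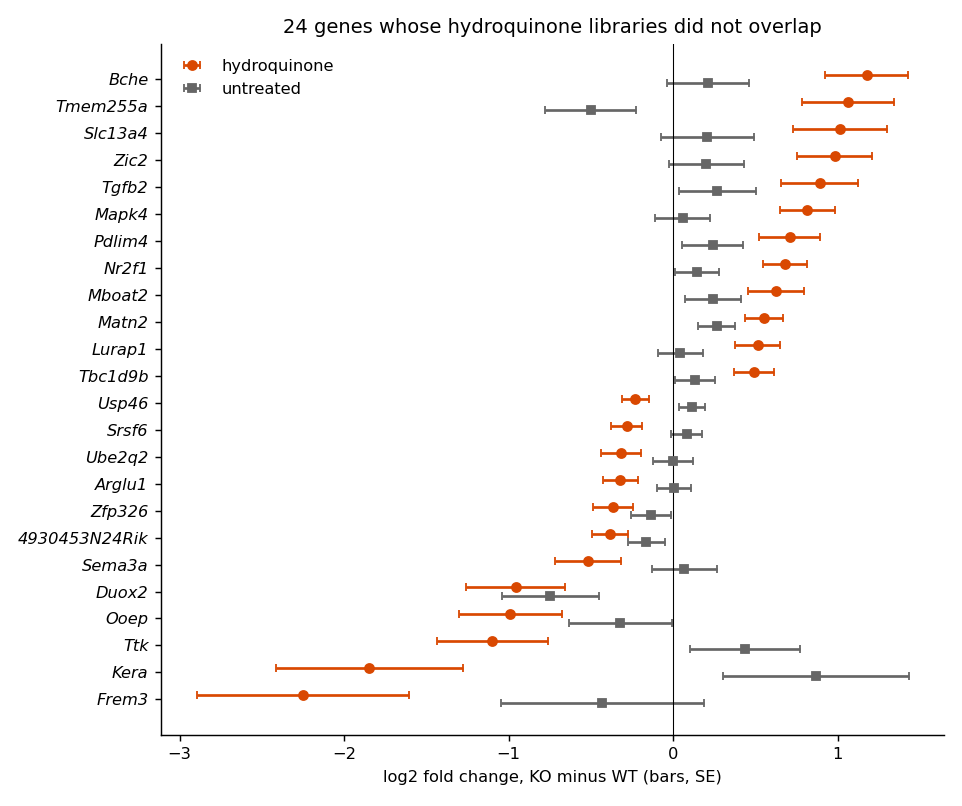
Log2 fold change of knockout over wild type with its SE for the 24 named genes, under hydroquinone (circles) and untreated (squares), from 1 fit over 16 libraries. The circles are separate from 0 because the genes were chosen on them; the squares lie between -0.75 and 0.87, with Tmem255a and 6 of the 12 lower genes on the other side of 0.

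Stretches of 250 bases before the RefSeq transcription start (GRCm38.p6) are shown for 3 of the named genes whose stretch lies outside annotated exons: Bche, a gene that passed in DESeq2, Tbc1d9b, the higher gene of the 12 with an antioxidant motif, and Ttk, the lower gene of the 12 with a nuclear receptor half-site. Capitals mark matches on either strand to AGGTCA, the half-site of nuclear receptors such as Nr2f1, to TGACNNNGC, the core of the antioxidant response element bound by NRF2, and to GGGCGG, the GC box. Bche is at chr3:73708416-73708665, minus strand, Tbc1d9b at chr11:50131110-50131359, plus strand, and Ttk at chr9:83834439-83834688, plus strand.
Bche: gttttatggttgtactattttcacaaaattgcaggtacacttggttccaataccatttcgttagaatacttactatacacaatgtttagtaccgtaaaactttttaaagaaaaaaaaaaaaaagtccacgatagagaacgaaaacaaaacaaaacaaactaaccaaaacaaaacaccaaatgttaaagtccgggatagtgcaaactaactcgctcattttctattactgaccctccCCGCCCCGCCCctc
Tbc1d9b: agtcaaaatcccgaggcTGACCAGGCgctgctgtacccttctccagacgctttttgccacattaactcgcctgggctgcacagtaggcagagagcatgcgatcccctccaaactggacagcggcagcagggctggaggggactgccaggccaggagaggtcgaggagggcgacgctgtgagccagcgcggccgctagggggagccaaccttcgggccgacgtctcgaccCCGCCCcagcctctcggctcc
Ttk: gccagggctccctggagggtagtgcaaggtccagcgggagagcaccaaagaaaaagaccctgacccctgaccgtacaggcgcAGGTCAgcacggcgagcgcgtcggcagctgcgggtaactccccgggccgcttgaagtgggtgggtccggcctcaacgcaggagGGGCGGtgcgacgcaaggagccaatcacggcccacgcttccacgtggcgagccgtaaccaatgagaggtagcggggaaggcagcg
In Bche the capitals are a pair of overlapping GC boxes just before the start. Tbc1d9b held TGACNNNGC and 1 GC box, and Ttk held AGGTCA and 1 GC box. The promoter table had entries for 9 of the 12 higher and 11 of the 12 lower genes. AGGTCA was in 0 of the 9 and 1 of the 11, against 15.8% of 27025 genes, and TGACNNNGC was in 1 of the 9 and 1 of the 11 (Ube2q2, not shown), against 11.5%. GGGCGG was in 6 of the 9 and 8 of the 11, against 35.4%. A match of letters is a description and not a site in use.

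The genes of the citric acid cycle and of succinate handling leaned upward in knockout by small amounts. Of 20 listed genes, 19 were tested: 3 had an unadjusted p below 0.05 and were higher, 0 were lower, 17 had a positive log2 fold change and 5 had separate libraries, all higher. Of all genes, 2.65% were higher at that p and 1.72% were higher with separate libraries. The median was 0.16, against 0.01 over all genes, and it stayed between 0.11 and 0.17 with any 1 library left out, while the count of 3 went from 1 to 4. It was 1 without wild-type replicate 1 (1.78% of all genes), knockout replicate 2 (2.62%) or knockout replicate 3 (1.4%), and 4 without wild-type replicate 3 (4.8%). The mean log2(CPM + 1) of the list was 6.69, 6.68, 6.81 and 6.81 in wild type and 6.87, 6.90, 6.95 and 6.92 in knockout, with no overlap. This was 1 of 29 pathway lists examined, and its separation was not tested. The median log2 fold changes of the extracellular matrix (0.24), matrix turnover (0.23), melanin (0.22) and WNT (0.18) lists were larger. Those of the other pathway lists were smaller or negative. Fh1, fumarase, was at 61.9 to 75.5 CPM in wild type and 75.7 to 83.9 CPM in knockout (log2 fold change 0.20, SE 0.09). Slc13a5, the plasma membrane citrate carrier, was low throughout, at 0.287, 0.778, 1.07 and 0.936 CPM in wild type and 2.90, 1.57, 1.75 and 2.18 CPM in knockout (1.45, SE 0.51). Sdhc, a subunit of succinate dehydrogenase, had separate libraries at 125 to 139 CPM and 142 to 153 CPM (0.19, SE 0.11), as did the isocitrate dehydrogenase subunits Idh3b (0.12) and Idh3g (0.17). In untreated eyes the median of the list was -0.05. Of 18 respiratory chain subunits 1 was higher, against 2.65% of all genes (Atp5b, 0.22, SE 0.10), and 9 of the 18 were positive. The Atp5b libraries of the groups did not overlap.

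The NRF2 and quinone response list bears most directly on hydroquinone. Of its 20 genes, 3 were higher in knockout at an unadjusted p below 0.05 and 0 were lower, against 2.65% and 1.53% of all genes, with a median of 0.13. The number higher ranged from 2 to 5 with 1 library left out, 5 being the count without knockout replicate 1, where 4.26% of all genes were higher. The number lower was 2 without wild-type replicate 3 (6.77% of all genes), 1 without knockout replicate 2 (4.45%) and 0 in the 6 other such fits. Gstm1, a glutathione S-transferase, was at 134, 127, 151 and 153 CPM in wild type and 171, 180, 189 and 189 CPM in knockout (log2 fold change 0.37, SE 0.12), with 18.9% of its 50-base windows shared with Gstm3, Gstm2-ps1 or Gm8834. Srxn1, sulfiredoxin, was at 67.0, 69.9, 74.8 and 78.3 CPM in wild type and 81.0, 97.0, 84.9 and 82.9 CPM in knockout (0.25, SE 0.10). Slc7a11, the cystine importer that feeds glutathione synthesis, was at 25.6 to 49.5 CPM and 40.1 to 77.0 CPM, with overlap (0.80, SE 0.25). The widely used reporters of this response, Nqo1 (0.03, SE 0.16) and Hmox1 (0.29, SE 0.17), did not pass. Gstm1 and Srxn1 were at 68.6 to 107 CPM and 43.1 to 57.8 CPM, respectively, over the 8 untreated libraries, all below each of the 8 hydroquinone ones. Among 15 antioxidant enzymes 2 were higher, the secreted enzymes Sod3 (0.62, SE 0.23) and Gpx3 (0.69, SE 0.28), both with overlap, against 2.65% of all genes. Without knockout replicate 3 neither was counted (0 of 15, against 1.4%).

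Genes of the RPE lists did not pass adjustment in edgeR. In DESeq2 only Nr2f1, of the listed transcription factors, did. Of 12 visual cycle genes 0 had an unadjusted p below 0.05, and their median was 0.02: Rpe65, the isomerase of the cycle, had a log2 fold change of -0.11 (SE 0.23) and Rgr, a retinal-binding opsin, 0.02 (SE 0.19). Of 13 melanin and melanosome genes 0 passed, with 12 positive and a median of 0.22. Without knockout replicate 1, 6 of those 13 were higher at p below 0.05, against 4.26% of all genes. Markers of the choroidal melanocyte, a pigment cell of the layer beneath the RPE whose list shares pigment genes with this one, had 8 of 10 positive, a median of 0.23, 0 higher and 1 lower, and 4 of 10 higher without knockout replicate 1. Their part in the melanin genes was not tested. Of the 15 RPE transcription factors, 3 were higher (Nr2f1, Rax and Lhx2; 2.65% of all genes) and 1 was lower (Foxp1; 1.53%). Rax, a homeobox factor of the eye field, was at 14.5, 24.6, 18.8 and 17.1 CPM in wild type and 40.1, 32.3, 50.6 and 26.9 CPM in knockout (1.00, SE 0.38), and Lhx2, another eye field factor, at 45.0 to 55.4 CPM and 49.2 to 86.0 CPM (0.47, SE 0.19). Foxp1, a forkhead factor, was at 65.4 to 96.7 CPM and 49.5 to 66.0 CPM (-0.46, SE 0.17). The count of 3 was 1 without wild-type replicate 1 (1.78% of all genes) or knockout replicate 3 (1.4%). Mitf (0.03) and Otx2 (0.02), the factors that specify RPE, differed by far less than their SEs of 0.23 and 0.18.

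Of 13 phagocytosis genes 2 were higher, against 2.65% of all genes, both ligands that link shed photoreceptor tips to the receptor MERTK. The count was 1 when knockout replicate 2, 3 or 4 or wild-type replicate 1 or 4 was left out, and 3 without knockout replicate 1 (4.26% of all genes). Pros1, protein S, was at 31.3, 34.4, 45.3 and 44.3 CPM in wild type and 59.2, 57.7, 47.2 and 70.4 CPM in knockout (log2 fold change 0.60, SE 0.18), and the closest libraries of the groups were 45.3 and 47.2 CPM. Gas6 was at 369 to 452 CPM and 377 to 609 CPM (0.32, SE 0.14). Of 14 junction genes, Cldn19, the main claudin of RPE tight junctions, was higher (0.93, SE 0.35) and Cldn10 was lower (-1.16, SE 0.37), and both overlapped. Over all genes 2.65% were higher and 1.53% lower. Cldn10 was at 16.8, 20.3, 5.65 and 9.49 CPM in wild type and 5.20 to 6.65 CPM in knockout, and its highest levels were in wild-type replicates 1 and 2, those with the high corneal markers.

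Extracellular matrix and Bruch membrane genes numbered 28 tested, of which 3 were higher (2.65% of all genes), 0 lower and 20 positive, with a median of 0.24. Choroidal endothelium markers, the vessels beneath Bruch membrane, had 14 of 14 positive, a median of 0.21 and 0 with an unadjusted p below 0.05, and their median was -0.03 without wild-type replicate 1. Their part in the matrix genes was not tested. Besides Matn2 these were Fbln1, fibulin-1, at 159.6 to 228 CPM in wild type and 181 to 417 CPM in knockout (0.67, SE 0.24), and Lamb2, the laminin beta-2 chain of basement membranes, at 126 to 174 CPM and 143 to 217 CPM (0.35, SE 0.16). Both overlapped. The number higher was 9 without knockout replicate 1 (4.26% of all genes) and 7 without wild-type replicate 3 (4.8%), and 1 without knockout replicate 3 (1.4%). Of 17 genes of matrix turnover 2 were higher, against 2.65% of all genes: Htra1, a secreted serine protease, at 44.3 to 60.6 CPM and 60.9 to 84.4 CPM (0.42, SE 0.14), and Adamts1 (0.78, SE 0.35). Of 14 heat shock genes 1 was higher (2.65% of all genes), the small chaperone Hspb8 (0.56, SE 0.18). Hspb8 was at 66.8, 66.6, 76.6 and 73.9 CPM in wild type and 92.2, 114, 106 and 105 CPM in knockout. The groups did not overlap for it, as for 1.72% of all genes higher in knockout.

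Immediate early and interferon-stimulated genes leaned downward, by an amount that varied with single libraries of both genotypes. Of 17 immediate early genes tested, 0 had a positive log2 fold change and 3 were lower at an unadjusted p below 0.05 (1.53% of all genes), with a median of -0.52. In untreated eyes the median was -0.36. The 3 were Fosb (-1.46), Klf4 (-1.12) and Fosl2 (-0.88), all transcription factors. Fosb was at 5.05, 26.7, 2.46 and 3.11 CPM in wild type and 3.65, 5.25, 2.69 and 1.97 CPM in knockout, and without wild-type replicate 2 its log2 fold change was -0.06. Without that library the median of the list was -0.02 and 0 genes were lower. No gene was lower without knockout replicate 3 or 4 either, and the median was -0.78 without knockout replicate 1. Of 19 interferon-stimulated genes 18 were negative, with a median of -0.50, and 1, Usp18, was lower (-1.25, SE 0.48), against 1.53% of all genes. The median was as low in untreated eyes, at -0.49. Their mean log2(CPM + 1) was 6.09, 6.86, 4.49 and 5.59 in wild type and 5.58, 5.51, 5.56 and 4.996 in knockout, so the widest spread was among wild-type libraries. Without wild-type replicate 3, the lowest, 14 of the 19 were lower, against 6.77% of all genes, and without wild-type replicate 2, the highest, or knockout replicate 4, 0 were.

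**Figure D4:**
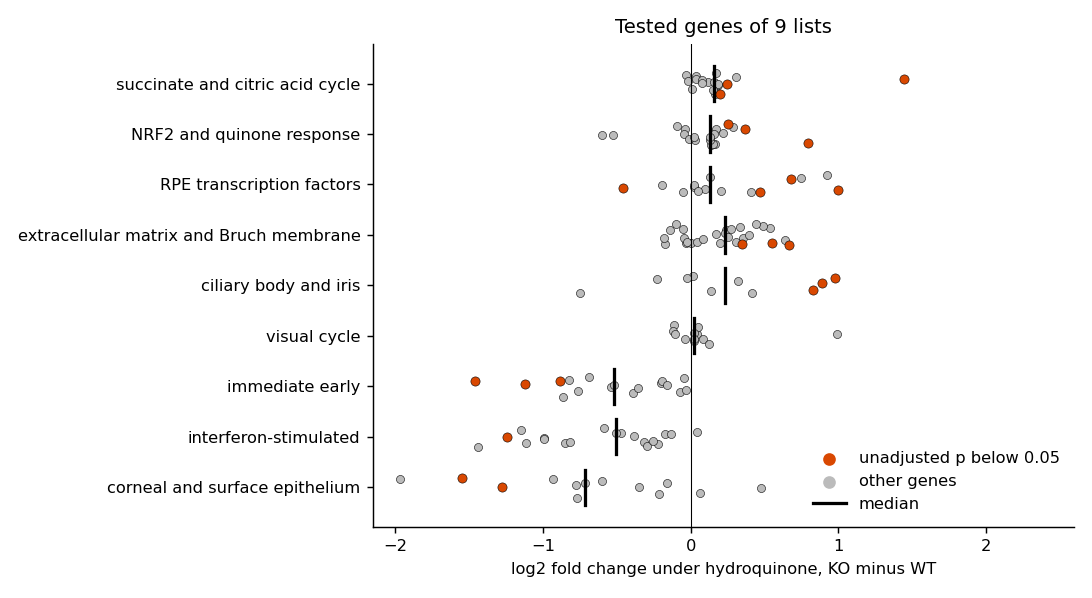
Log2 fold change of knockout over wild type under hydroquinone for each tested gene of 9 lists; filled orange points have an unadjusted edgeR p below 0.05 and the bar is the list's median. The medians run from 0.24 for the extracellular matrix list to -0.71 for the corneal list, while the visual cycle sits at 0.02.

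Markers of neighbouring tissues moved with some of these results. Of 10 ciliary body and iris markers, tissues that adjoin the RPE at the front of the eye, 3 were higher in knockout (Zic1, Zic2 and Tgfb2; 2.65% of all genes), 0 were lower, and the median was 0.23. Their mean log2(CPM + 1) was 4.81, 4.79, 5.002 and 4.87 in wild type and 4.986, 5.10, 5.36 and 5.16 in knockout, with knockout replicate 1 just below wild-type replicate 3. Zic1 was at 34.2, 33.9, 56.9 and 37.1 CPM in wild type and 48.5, 69.8, 96.5 and 72.8 CPM in knockout (0.83, SE 0.25). Its groups overlapped. Of the 10 markers 7 had a positive log2 fold change, and 3 had separate libraries, all higher, against 1.72% of all genes. Some markers lay on the other side of 0 or near it: Opcml had a log2 fold change of -0.75 and Npr3 0.01. The part of these tissues in the differences of Nr2f1, Rax, Tgfb2 and Zic2 was not tested. Since these are bulk samples, fewer cells of a type and less RNA per cell cannot be told apart.

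Corneal and surface epithelium markers were lower for 2 of 13 genes (Aldh3a1 and Dsg1a), against 1.53% of all genes, with 11 negative and a median of -0.71. Aldh3a1, the crystallin-like enzyme of the cornea, was at 4928, 6828, 664 and 1519.7 CPM in wild type and 1805, 1892, 519.5 and 548.5 CPM in knockout, so wild-type replicates 1 and 2 were the highest. The same pair was highest for Klf4, with 438 and 494 CPM against 72.4 to 194 CPM in the other 6 libraries, and for Fosl2, with 255 and 284 CPM against 55.6 to 146 CPM. The number of lower corneal genes was 9 without knockout replicate 2 (4.45% of all genes were lower), 7 without wild-type replicate 3 (6.77%) and 0 without wild-type replicate 1 or 2 or knockout replicate 3 or 4. The part of corneal tissue in the lower Klf4, Fosl2, Cldn10 and Kera levels was not tested.

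Photoreceptor RNA varied widely between libraries of both genotypes. The mean log2(CPM + 1) of 15 rod markers was 6.89, 7.41, 7.08 and 4.31 in wild type and 9.59, 3.56, 2.76 and 3.35 in knockout. With knockout replicate 1 all 15 rod markers had a positive log2 fold change and 0 had an unadjusted p below 0.05; without it 13 of the 15 were lower, against 3.24% of all genes, and their median was -4.14 in place of 0.88. Slc1a3, the glial glutamate transporter, had the largest fold among the neural retina markers, at 35.8, 18.7, 38.0 and 26.3 CPM in wild type and 163, 84.8, 35.9 and 95.5 CPM in knockout (1.68, SE 0.43). Knockout replicate 3 lay within the wild-type range for Slc1a3. Oligodendrocyte markers, genes of optic nerve myelin, had a mean log2(CPM + 1) of 6.04 in wild-type replicate 1 and 7.34 and 5.29 in knockout replicates 1 and 2, against 2.86 to 4.00 in the other 5. Macrophage and microglia markers had a mean of 5.73 in wild-type replicate 4, against 4.89 to 5.30 in the rest.

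**Figure D5:**
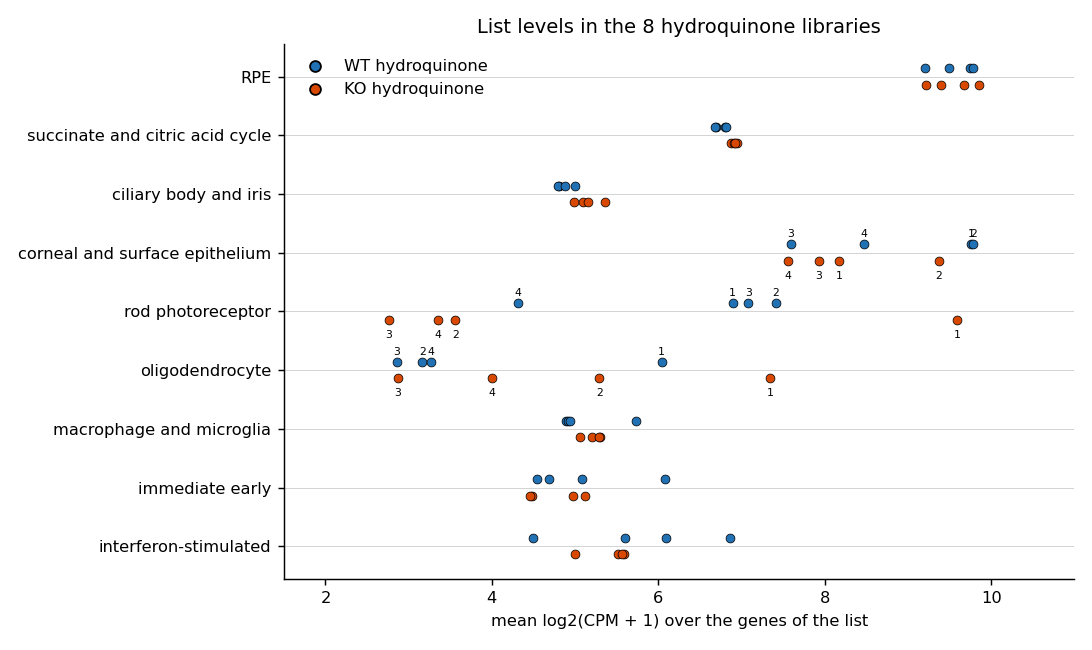
Mean log2(CPM + 1) over the tested genes of 9 lists in each of the 8 hydroquinone libraries; digits beside points are replicate numbers in the 3 most variable lists. Among the 9 drawn, the citric acid cycle list alone has groups that do not overlap; rod markers run from 2.76 to 9.59 within knockout.

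Over all 29 pathway lists, which hold 504 different tested genes, 30 were higher (5.95%) and 14 lower (2.78%) at an unadjusted p below 0.05, against 2.65% and 1.53% of all genes. The lists were written for this tissue and treatment with earlier results of these data known, and they hold Nr2f1, Mapk4 and Matn2. A larger share in the lists is therefore favoured by the choice and is given as a description. The shares of 2.65% and 1.53% also stand beside the list counts that follow. Several had no gene past that p in either direction: the visual cycle, melanin, RPE channels and transporters, complement, p53 and senescence and the proteasome. Of 16 angiogenic factors, Vegfd, a growth factor of lymphatic vessels, was higher, at 7.49, 7.38, 7.63 and 7.45 CPM in wild type and 7.97, 16.4, 18.2 and 10.6 CPM in knockout (0.83, SE 0.29), and Sema3a was lower. Of 22 TGF-beta and BMP genes, Tgfb2 was higher and Tgfbi, a matrix protein abundant in the cornea, was lower (-1.29, SE 0.53), with 351 and 430.1 CPM in wild-type replicates 1 and 2 against 58.9 to 156 CPM in the other 6. Of 18 WNT genes, the secreted modulator Dkk3 (0.57, SE 0.22) and the feedback inhibitor Nkd1 (0.64, SE 0.28) were higher. Among cytokines and chemokines Il1b (-1.22, SE 0.44) and Ccl8 (-1.29, SE 0.47) were lower, both with overlap, and Il1b was at 3.08 and 2.36 CPM in wild-type replicates 1 and 2 against 1.10 CPM or less elsewhere.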

How the data were processed

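RNA of mouse RPE, sequenced on an Illumina NovaSeq, was deposited as 1 table of read counts per Ensembl gene for 16 libraries. The deposited values are whole-number counts (100% whole), although the name of the table announces FPKM. STAR, Cufflinks, DESeq2 and the build mm10 are listed, without versions or roles, per the submitters' processing notes; settings, counting tool, annotation and strand are not given in the sources used here. Of 51912 identifiers, 51719 matched GENCODE vM21 (GRCm38), the source of symbols and 1-based coordinates. The titles name 13 mice, while the labels' protocol gives 4 animals per group; the titles were followed, and they give 8 mice for the 8 hydroquinone libraries. The p-values measure the spread between these libraries, each counted as a unit. Fellow eyes of a mouse therefore count as replicates in the untreated groups (4 libraries from 2 mice and 4 from 3 mice). This bears on the untreated and interaction SEs and p-values, and on the spread shared by the 4 groups. No pair of libraries within a group was a copy (chi-square per degree of freedom at least 21.9). Pairs across groups were not compared. Total counts of the 8 libraries ran from 23356175 to 35332444.

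Genes averaging 1 CPM or more across the 16 libraries (15380 genes, 99.8% of counts) were tested with edgeR 4.0.16 in R 4.3.3 (quasi-likelihood F test, TMM scaling, 4 group means, 12 residual degrees of freedom) and Benjamini-Hochberg adjustment at 0.05. SEs are the absolute log2 fold change divided by the square root of F. CPM values use TMM-scaled library sizes; list means use log2(CPM + 1). DESeq2 1.42.0, limma 3.58.1, other scalings and filters, covariates and left-out libraries were alternatives. The fits were tested on simulated data. The groups compared, the genes given with the comparison and the lists were chosen with earlier results of these data known. Named genes were Sucnr1, Nr2f1, Mapk4 and Matn2; the 12 higher and 12 lower protein-coding genes with separate libraries and the smallest p; up to 3 genes per list with p below 0.05, or else its most abundant; genes called by edgeR or DESeq2; and neighbours of Sucnr1. Others named were chosen after their values were seen. The promoter stretches of Nr2f1 lie in an annotated exon and are not shown; Mapk4, Matn2 and Zic2 had no entry. Motifs were searched on both strands of 250 bases before the start. Values of some named genes are not reported here.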

Additional observations from a re-analysis of the deposited data

Results flagged for a closer look

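In 23 of 270 sets of 4 libraries examined (the 8 hydroquinone libraries, gene levels and list means), 1 library lay far from its 3 others by Dixon's ratio of gap to range, past its 95% critical value. The ratios were taken on the log2(CPM + 1) scale for genes as well as for list means, while gene levels are shown in CPM. Chance would give about 1 in 20, or 13.5 of 270. Knockout replicate 1 accounted for 9 of the 23, wild-type replicate 3 for 5, wild-type replicate 4 for 3, wild-type replicate 2 for 3, wild-type replicate 1 for 2 and knockout replicate 4 for 1.

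Among genes, Bche stood out in both groups, at 8.91 CPM in wild-type replicate 3 against 4.01 to 4.47 (ratio 0.873) and at 10.4 CPM in knockout replicate 1 against 12.8 to 12.9 (0.959). Wild-type replicate 3 was also apart for Kera (14.9 CPM against 4.68 to 5.01, ratio 0.945), Arglu1 (111 against 90.7 to 93.1, ratio 0.867) and Lamb2 (174 against 126 to 128, ratio 0.965). Wild-type replicate 2 was apart for Tbc1d9b (96.7 CPM, ratio 0.870), Zfp326 (39.6 CPM, ratio 0.875) and Ube2q2 (79.7 CPM, ratio 0.909), and wild-type replicate 1 for Sema3a (5.62 CPM, ratio 0.858). Each of these left a wild-type library nearer to the knockout level for Bche and Lamb2 and farther from it for Kera, Arglu1, Tbc1d9b, Zfp326, Ube2q2 and Sema3a. Knockout replicate 1 was apart for Sqstm1 (440.2 CPM, ratio 0.883), Dct (2443 CPM, ratio 0.841), Guca1a (200.2 CPM, ratio 0.864) and Mbnl1 (184 CPM, ratio 0.949).

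Among list means on the log2(CPM + 1) scale, knockout replicate 1 was high for rod markers (9.59, ratio 0.883), cone markers (5.31, ratio 0.988), other neural retina (5.32, ratio 0.853) and hypoxia and glycolysis (7.26, ratio 0.971). Wild-type replicate 4 was low for rod markers (4.31, ratio 0.832) and high for macrophage and microglia markers (5.73, ratio 0.943) and complement (5.59, ratio 0.894). Wild-type replicate 1 was high for oligodendrocyte markers (6.04, ratio 0.872), wild-type replicate 3 low for retinoic acid signalling (4.74, ratio 0.840) and knockout replicate 4 low for interferon-stimulated genes (4.996, ratio 0.883).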

How the results depend on the processing

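In edgeR the number of genes called for knockout against wild type under hydroquinone was 0 with TMM, RLE and upper-quartile scaling, with no filter or a minimum of 5 CPM, with each covariate and with each library left out (0 to 0). It was 3 in DESeq2. The number with an unadjusted p below 0.05 was 643. It was 1123 with no filter and 1039 with the rod marker score as covariate (724 higher, 315 lower). With only the libraries whose own identifiers hold no letter it was 147. Under hydroquinone these are wild-type replicates 1, 2 and 3 and knockout replicates 1 and 2, so fewer libraries were compared. With the identifier form as covariate over all 16 libraries it was 453. That form belongs to the library and not to the mouse, since fellow eyes differ in it, and the titles do not show it. The cause of these changes was not tested. With 1 library left out the number ranged from 320 to 1779. The split of 407 higher to 236 lower was 366 to 282 with RLE, 335 to 302 with upper-quartile scaling, 265 to 274 with a minimum of 5 CPM and 422 to 394 in DESeq2. Over 70 named genes and 22 other settings (a minimum of 5 CPM left some genes untested) no log2 fold change with a test changed sign, and 3 gained a call, all in DESeq2: Nr2f1 (0.67), Mapk4 (0.80) and Bche (1.17). These genes were mostly chosen for a small p or separate libraries in the main fit, and the settings refit the same libraries. A stable sign is therefore favoured by the choice. Among genes given for their level, Guca1a was at -3.24 without knockout replicate 1, and Aadac at 0.36 with only the identifiers that hold a letter, which is 1 wild-type against 2 knockout libraries under hydroquinone. Sucnr1 differed by -0.027 with a pseudocount of 0.1 (exact permutation p = 1). No paired analysis was possible because the replicate numbers are accession order and the 8 libraries come from 8 mice.

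With 4 mice a group and a median SE of 0.20, most fold changes in this comparison (median size 0.14) are smaller than their error. Differences at Sucnr1 itself were not detectable at this depth.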
